A study of Mus musculus with 18 samples.

Results

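A set of 8 genes was followed through all 18 libraries of the series. Of these, 6 are genes of ADP-ribosylation that are known as interferon-stimulated genes: Parp9, Dtx3l, Parp14, Parp10, Parp11 and Parp12. The other 2, Parp1 and Parp2, are PARP genes of DNA repair and were included as contrasts that interferon is not known to drive. The genes were chosen by name, from a table of 55401 identifiers for the endothelial libraries and a table of 22612 symbols for the tumour cell libraries, and every one of the 8 was found in both tables and passed the filter on low counts in both.

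PARP enzymes take ADP-ribose from NAD and attach it to proteins. PARP1 and PARP2 sit in the nucleus, bind broken DNA and build chains of ADP-ribose that bring repair proteins to the break. Most of the interferon-linked enzymes add a single ADP-ribose. PARP10, PARP11, PARP12 and PARP14 are of that kind, and PARP14 also carries macrodomains, the modules that bind ADP-ribose. PARP9 carries macrodomains too and works in a complex with DTX3L, a ubiquitin ligase of the deltex family. Interferons act through receptors, JAK kinases and transcription factors that include STAT2 and IRF9, and these 6 genes belong to the large set that this pathway switches on in many cell types, endothelium included.

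The study sorted endothelial cells from wild-type female C57BL/6 mice and also treated EO771 cells, a mouse breast cancer line, in culture. Blood vessel endothelial cells (BECs) came from the mammary fat pad (BEC normal) or from EO771 tumours grown in the fat pad (BEC tumour), and high endothelial cells (HECs), which line the venules where lymphocytes enter lymph nodes, came from inguinal lymph nodes of mice without tumours (HEC normal) or with them (HEC tumour). The labels call the tissue of the HEC tumour group lymph node metastases. All endothelial cells were gated as CD45- with high CD31, and HECs were those that also carried peripheral node addressin (PNAd). EO771 cells received vehicle, which was DMSO in saline, or 12-HETE, a lipid formed from arachidonic acid by ALOX12. Each of the 6 groups held 3 libraries. The dose and time of 12-HETE are given in the study's methods and not in the labels. The labels name no batch and no mouse behind a replicate, so p-values measure only the spread between these libraries.

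Endothelial libraries held totals of 56.4 to 79.4 M. Their values move in steps of 3.68 to 3.75, and dividing by the step leaves 15.0 to 21.1 M. EO771 libraries held 17.3 to 18.6 M. Glycam1 and Chst4, which define high endothelium, were at 0 in all 6 BEC libraries and high in the HEC libraries, except that Chst4 had a value of 4 in HEC normal replicate 2 (19627 and 21144 in the other libraries of that group). Fut7, another gene of high endothelium, had 12879 in HEC tumour replicate 3 and 57586 and 66399 in the other HEC tumour libraries. Ccl21a, also on the list of high endothelial markers, went the other way. It was at 0 in every HEC and every BEC normal library and above 0 in every BEC tumour library. By the call rule given below, 3 of the 6 markers on that list were higher and 0 lower in HEC normal against BEC normal. In HEC tumour against BEC tumour 3 were higher and 1 lower. BEC tumour libraries also carried RNA of other cells: the 7 myeloid markers summed to between 1503 and 2024 CPM (counts scaled to the library total) there, against 108 to 129 in BEC normal, 484 to 509 in HEC normal and 356 to 374 in HEC tumour, with none of the 7 at 0 in any BEC tumour library. The 6 T cell markers summed to between 22.2 and 40.8 CPM in BEC tumour and to at most 0.163 CPM in any other endothelial library. Only 1 of these 6 passed the filter on low counts in the endothelial table, so the sum does not stand for the list. Cd3e was at 0 in BEC tumour replicates 1 and 2 and at 0.194 CPM in replicate 3. In EO771 cells the mitochondrial share of the counts was 0.718 to 0.816% with vehicle and 2.24 to 2.45% with 12-HETE, and the 5 epithelial markers summed to 3621 to 4597 CPM with vehicle and 2678 to 2745 CPM with 12-HETE. In such bulk libraries, fewer cells that express a gene and less RNA of it per cell cannot be told apart.

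Of the 6 interferon-linked genes, 3 are neighbours on mouse chromosome 16 (GRCm38, GENCODE annotation). Parp14 (16:35832874-35871544, reverse strand) and Dtx3l (16:35926511-35939151, reverse strand) read in the same direction, and Parp9 (16:35938470-35972605, forward strand) reads the other way. Dtx3l and Parp9 overlap at their 5′ ends. Counted in bases from the Dtx3l start along the forward strand, the outermost annotated start of Parp9 lies at -681, inside Dtx3l, and that of Parp14 at -67607. The exons of Parp9 and Dtx3l share 458 bases, which make up 9.4% of the exon bases of Parp9 and 8.0% of those of Dtx3l. Counting was not stated to use the strand of the reads, so reads from the shared 458 bases cannot be assigned to either gene, whereas the rest of each gene is free of the other. Parp10 (15:76231174-76243441) shares 4.8% of its exon bases with Plec, and Parp11 (6:127446840-127494261) and Parp12 (6:39086410-39118349) share none with another gene. Parp1 (1:180568924-180601254) shares 0.13% and Parp2 (14:50807841-50821301) none.

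**Figure D1:**
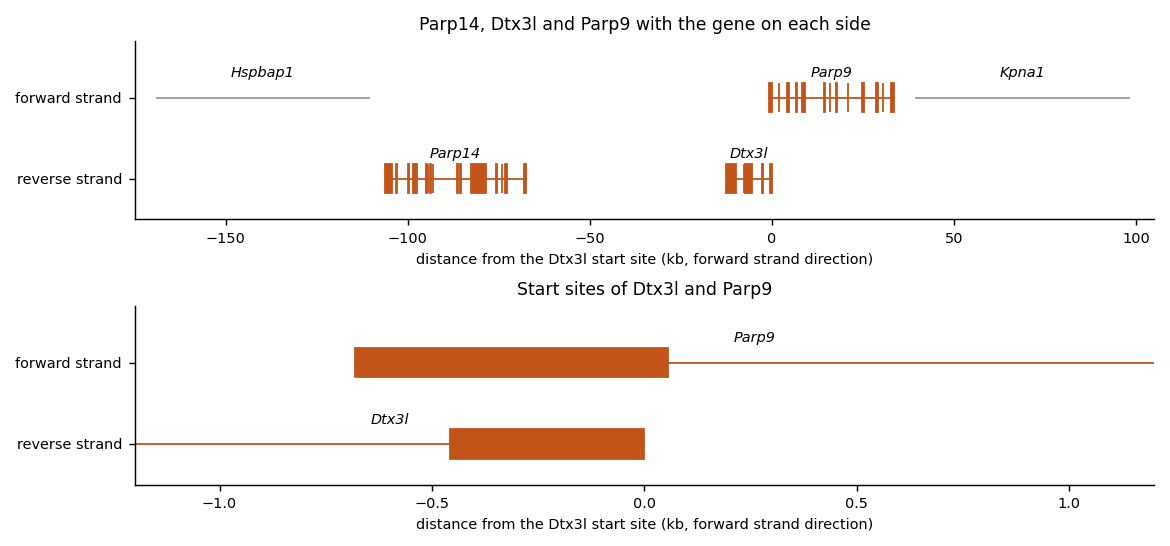
Positions of Parp14, Dtx3l and Parp9 and of the gene on each side, in kb from the Dtx3l start site along the forward strand. Boxes are exons of the 3 members, lines are gene bodies, and the neighbours Hspbap1 and Kpna1 are drawn as lines only. The lower panel shows the overlapping first exons of Dtx3l and Parp9, which share 458 bases.

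RefSeq promoter windows (GRCm38.p6, 250 bases before to 50 bases after a start) were at hand for 5 of the 8 genes: Parp11 with 2 windows, and Parp12, Dtx3l, Parp1 and Parp2 with 1 each. They were searched on both strands for GAAA followed by 2 bases of any kind and GAAA again, the core of the interferon-stimulated response element, and for TTCNNNGAA, the core of the gamma-activated sequence. The 120 bases that end just before the start are shown for the 3 windows where this stretch lies outside every annotated exon, namely those of Parp11 (chr6:127446720-127446839, forward strand), Parp12 (chr6:39118350-39118469, reverse strand) and Parp1 (chr1:180568771-180568890, forward strand). Capitals mark matches to the letters searched.
Parp11: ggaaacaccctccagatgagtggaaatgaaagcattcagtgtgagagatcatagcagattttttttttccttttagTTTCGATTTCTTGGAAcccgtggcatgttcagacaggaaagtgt
Parp12: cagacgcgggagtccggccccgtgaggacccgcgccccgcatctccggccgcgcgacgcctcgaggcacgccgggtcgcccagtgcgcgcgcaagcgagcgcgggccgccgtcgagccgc
Parp1: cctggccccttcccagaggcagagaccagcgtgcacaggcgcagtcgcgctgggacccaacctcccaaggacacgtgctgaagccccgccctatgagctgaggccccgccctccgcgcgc

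The upstream window of Parp11 held both motifs in overlap. Counted from the start, the paired GAAA motif matched on the reverse strand from -44 to -35, as TTTCGATTTC, and TTCNNNGAA matched from -37 to -29, as TTCTTGGAA. Over all 32851 promoter windows, 3.44% held the first motif and 8.30% the second. Neither set of letters was found in the other 5 windows, which are those of Parp12, Dtx3l, Parp1 and Parp2 and the downstream window of Parp11. These windows also differed in base composition: G and C made up 42.0% of the upstream Parp11 window, 54.3% of that of Dtx3l and 73.7% of that of Parp12, against a median of 52.7% over all windows.

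The first question was how these genes stood in the 4 kinds of endothelium and whether they changed with a tumour. Values are counts scaled by the median of ratios across the 12 endothelial libraries, called normalised counts here. The word called is kept for genes with a DESeq2 adjusted p-value (Benjamini-Hochberg over 18511 genes) below 0.05 and a change over 2-fold, that is, 1 on the log2 scale. Among the 6 interferon-linked genes, every one had a lower mean in tumour-associated than in normal endothelium, in HECs and in BECs alike, whereas Parp1 and Parp2 did not share that pattern.

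Parp9, the macrodomain partner of the ligase, showed the largest fall in HECs. Its normalised counts were 5287, 4453 and 4538 for HEC normal and 1750.1, 1878 and 2005 for HEC tumour, and they were 6724, 6246 and 7417 in BEC normal and 3084, 2930.5 and 2907 in BEC tumour. All tumour libraries lay below all normal libraries of the same cell type. The log2 fold change was -1.34 ± 0.10 (SE, n = 3 per group, DESeq2 adjusted p = 4.38e-41) in HECs, or 2.53-fold lower, and -1.19 ± 0.10 (adjusted p = 4.69e-34) in BECs, or 2.29-fold lower.

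Dtx3l, the ubiquitin ligase, changed by nearly the same amount. In HECs it had 4246, 3582 and 4163 normalised counts without a tumour and 1682, 1739.7 and 1458 with one. In BECs it had 4199, 3815 and 4567 counts without a tumour and 1781, 1866 and 1909 in tumours. Again no tumour library reached the normal ones, and normal HECs and normal BECs overlapped. The log2 fold changes were -1.30 ± 0.11 in HECs (DESeq2 adjusted p = 1.22e-32) and -1.18 ± 0.105 in BECs (adjusted p = 4.52e-28).

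Parp12, a zinc-finger enzyme that adds single ADP-ribose units, had the highest level per kb of exon of the 6 interferon-linked genes in BEC normal and the largest fall in BECs. Its normalised counts were 10295, 11663 and 11644 in BEC normal and 3894, 4389 and 4782 in BEC tumour. In HECs they were 5975, 5953 and 5973 without a tumour and 2676, 2668 and 2763 with one. The 4 groups therefore stood apart from each other with no overlap, in the order BEC normal, HEC normal, BEC tumour and HEC tumour. Parp12 fell by 1.36 ± 0.08 on the log2 scale in BECs (DESeq2 adjusted p = 5.76e-58), or 2.57-fold, and by 1.14 ± 0.08 in HECs (adjusted p = 3.08e-39), or 2.21-fold.

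Parp14, the macrodomain enzyme encoded beside Dtx3l, fell past the threshold in HECs. There it had 5541, 5569 and 5525 normalised counts without a tumour and 2339, 2578 and 2495 with one, which gave a log2 fold change of -1.17 ± 0.16 (DESeq2 adjusted p = 4.64e-12). In BECs its values were 6967, 4279.8 and 5194 without a tumour and 4308, 4174 and 3404 in tumours, so the groups overlapped. There the log2 difference was -0.47 ± 0.16 (adjusted p = 0.00718) and not called. The BEC value rests in part on BEC normal replicate 1, the highest library: without it the difference was -0.26 (adjusted p = 0.0571), and without BEC tumour replicate 3, the library in which the epithelial markers were highest (95.9 CPM, against 15.5 and 19.3 in the other BEC tumour libraries), it was -0.37 (adjusted p = 0.0575).

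Parp10 and Parp11, also enzymes of single ADP-ribose units, were lower by less than 2-fold. In HECs Parp10 had 6203, 5854 and 5868 normalised counts without a tumour and 2809, 3273 and 3509.9 with one, a log2 difference of -0.90 ± 0.11 (DESeq2 adjusted p = 1.08e-15). In BECs it had 5881, 6049.7 and 5314 counts without a tumour and 2989.6, 3530.3 and 3663 in tumours (-0.76 ± 0.11, adjusted p = 7.66e-12). Parp11 had 2839, 2764 and 2593 counts in HEC normal, then 1887, 1706 and 1765 with a tumour, 2892, 2867 and 3053 in BEC normal and 1906, 1818 and 2068 in BEC tumour. Its log2 differences were -0.61 ± 0.08 in both cell types (adjusted p = 4.32e-14 in HECs and 1.66e-14 in BECs). For both genes the tumour libraries lay below the normal ones in each cell type, and the HEC tumour and BEC tumour groups overlapped.

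Counted together, 4 of the 6 interferon-linked genes were called lower in HEC tumour against HEC normal (Parp9, Dtx3l, Parp14 and Parp12), where 3.21% of all genes tested were called lower and 4.58% higher. In BEC tumour against BEC normal 3 of 6 were called lower (Parp9, Dtx3l and Parp12), where 10.8% of all genes were called lower and 12.4% higher. By adjusted p alone, with no demand on the fold, all 6 were lower in each comparison, against 18.5% of genes in HECs and 27.2% in BECs. All 3 tumour libraries lay below all 3 normal libraries for 6 of 6 genes in HECs (24.1% of all genes) and for 5 of 6 in BECs (30.4%). The median log2 difference of the 6 was -1.15 in HECs and -0.97 in BECs, where the median over all genes was 0.02 and 0.01. The counts of 4 and 3 called genes did not change when any single library was left out. The summed myeloid and T cell markers were higher in BEC tumour than in BEC normal, as given above, though only 1 of the 6 T cell markers could be tested. The summed leukocyte markers were higher too (22.3 to 35.9 CPM in BEC normal, 114 to 201 CPM in tumours). Other lists fell together with the Parp genes: the 7 fibroblast and pericyte markers summed to 206 to 213 CPM in BEC normal and 37.9 to 69.8 CPM in BEC tumour, with 5 of 6 tested called lower and 1 higher, the 10 pan-endothelial markers to 3585 to 3796 and 2754 to 2811 CPM, and the 4 lymphatic markers to 341 to 362 and 200.4 to 221 CPM. In HECs the summed fibroblast and pericyte markers also went down with a tumour, from 22.7 to 23.6 CPM to between 10.99 and 11.8 CPM, as did the myeloid sum, and the T cell markers were at 0 in all 3 HEC tumour libraries. Of the 7 myeloid markers, 0 were called in either direction in HEC tumour against HEC normal. By adjusted p alone 1 was lower and 0 higher. The summed leukocyte markers stood higher there (17.7 to 22.2 CPM without a tumour, 23.2 to 38.4 CPM with one). By gene, however, 2 of the 5 were called lower and 0 higher, with a median log2 difference of -1.78. Higher sums were also found for the 6 high endothelial markers (975 to 1331 and 2225 to 3057 CPM), the pan-endothelial markers (2697 to 2835 and 2903 to 2954 CPM) and the lymphatic markers (282 to 338 and 349.6 to 360.0 CPM). Of the 4 lymphatic markers, 1 was called lower and 0 higher. Among the 6 high endothelial and the 10 pan-endothelial markers, 0 were called in either direction. By adjusted p alone 1 high endothelial marker was higher and 0 lower. For the pan-endothelial markers 3 were higher and 3 lower, with a median log2 difference of -0.05. Over all genes 16.9% were higher and 18.5% lower by adjusted p alone. The part of these markers in the BEC and HEC values was not tested.

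**Figure D2:**
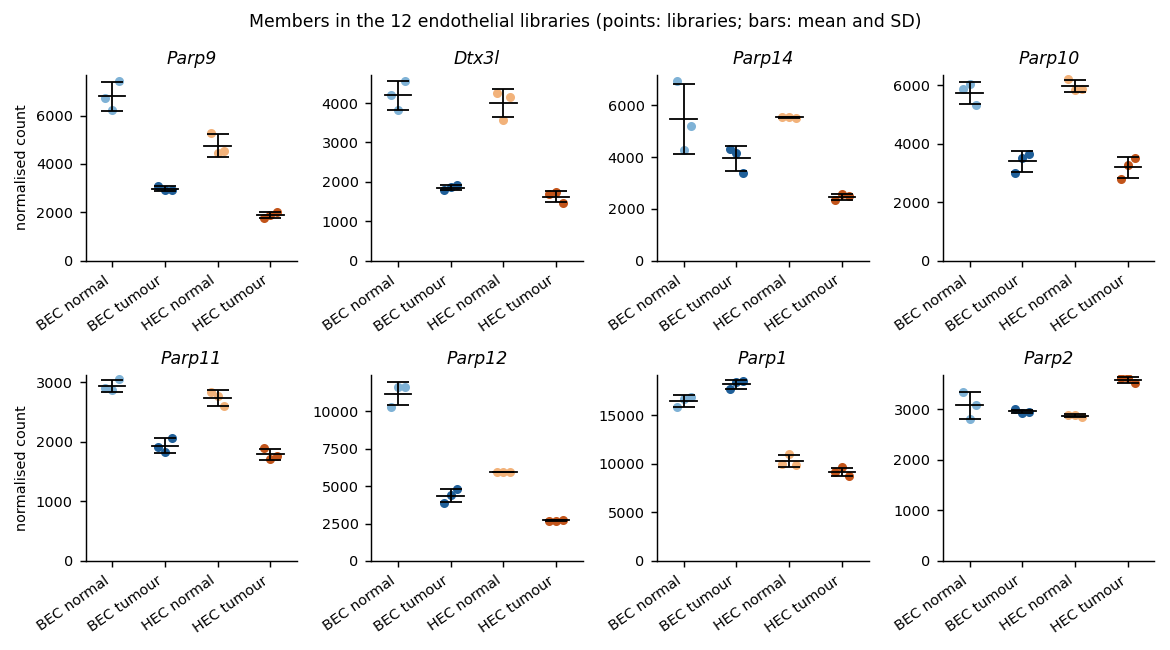
Normalised counts of the 8 genes in the 12 endothelial libraries. Points are libraries and bars are the mean and SD of 3 libraries, on linear axes that start at 0. The 6 interferon-linked genes stood lower in tumour than in normal endothelium of each cell type, with overlap only for Parp14 in BECs. Parp1 stood higher in all BEC than in all HEC libraries, and Parp2 differed little.

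The contrast genes behaved otherwise. Parp1, the main sensor of DNA breaks, had 15834, 16668 and 16923 normalised counts in BEC normal and 17698, 18379.7 and 18566 in BEC tumour. In HECs it had 9935, 10978 and 9856 counts without a tumour and 9167, 9621 and 8739 with one. All BEC libraries thus lay above all HEC libraries, whether or not a tumour was present. With a tumour the log2 difference was -0.16 ± 0.06 in HECs (DESeq2 adjusted p = 0.0312) and 0.14 ± 0.06 in BECs (adjusted p = 0.0370), both under 2-fold and of opposite sign.

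Parp2, the related sensor, had 2878, 2889 and 2843 normalised counts in HECs without a tumour and 3604, 3615 and 3511 with one, a log2 difference of 0.32 ± 0.07 (DESeq2 adjusted p = 2.40e-05) that was also under 2-fold. In BECs it had 3326, 2799 and 3087 counts without a tumour and 2994, 2928 and 2941 in tumours, and these overlapped (-0.06 ± 0.07, adjusted p = 0.504). Neither contrast gene was called in either tumour comparison by DESeq2 or edgeR.

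The effect of a tumour in HECs was set against that in BECs by an interaction term, the log2 change in HECs less that in BECs. No member passed the call rule, which 11.1% of all genes passed in the higher and 12.1% in the lower direction. edgeR called none either, and 1 of the 6 interferon-linked genes, Parp14, was lower at an unadjusted p below 0.05, as 26.5% of all genes were. For Parp9 the interaction was -0.15 with a 95% interval of -0.42 to 0.12, for Dtx3l -0.12 (-0.41 to 0.17), for Parp10 -0.14 (-0.44 to 0.15), for Parp11 -0.01 (-0.22 to 0.20) and for Parp12 0.22 (-0.01 to 0.45). All 5 of these intervals include 0. For Parp14 it was -0.70 (-1.14 to -0.26, DESeq2 adjusted p = 0.00532), so its change was the larger in HECs by a size short of 2-fold. By adjusted p alone 23.7% of all genes were lower and 22.9% higher in this interaction, so that such a difference is common here.

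HECs were also compared directly with BECs. Without a tumour, 15.1% of all genes were called lower in HECs and 17.1% higher, and DESeq2 and edgeR called 0 of the 6 interferon-linked genes in either direction, with 2 of them lower at an unadjusted p below 0.05. That share is at the background, since 33.1% of all genes were lower at this threshold and 31.9% by adjusted p alone. The 2 were Parp12, with a log2 difference of -0.91 ± 0.08 (DESeq2 adjusted p = 1.43e-26), and Parp9, with -0.51 ± 0.10 (adjusted p = 2.54e-07). The log2 differences of the other 4 were -0.10 ± 0.08 for Parp11, -0.07 ± 0.10 for Dtx3l, 0.02 ± 0.16 for Parp14 and 0.06 ± 0.11 for Parp10, and the libraries of the last 3 overlapped. Parp1 was lower in HECs by a log2 difference of -0.68 ± 0.06 (adjusted p = 3.67e-27), and Parp2 overlapped (-0.10 ± 0.07, adjusted p = 0.1998).

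With tumours, 10.7% of all genes were lower in HECs and 11.2% higher. Again 0 of the 6 interferon-linked genes were called by DESeq2 or edgeR in either direction, and 3 were lower at an unadjusted p below 0.05: Parp12 (-0.69 ± 0.08), Parp14 (-0.68 ± 0.16) and Parp9 (-0.66 ± 0.10). At this threshold 30.1% of all genes were lower, and 28.4% by adjusted p alone. Dtx3l differed by -0.19 ± 0.11, Parp11 by -0.11 ± 0.08 and Parp10 by -0.09 ± 0.11, and the last 2 overlapped. Parp1 stood at the edge of the rule. Its log2 difference was -0.99 ± 0.06 (DESeq2 adjusted p = 3.03e-55), and it became a called gene in edgeR, with TMM scaling, with only these 2 groups in the fit or without BEC tumour replicate 1 (-1.01 each), and without HEC tumour replicate 2 (-1.02). Parp2 was higher in HECs here by a log2 difference of 0.28 ± 0.07 (adjusted p = 0.000157).

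Since Parp9 and Dtx3l work as a pair, their balance was followed per length. The ratio of Parp9 to Dtx3l, each as normalised count per kb of exon, was 1.88 to 1.92 in BEC normal, 1.79 to 2.03 in BEC tumour, 1.28 to 1.46 in HEC normal and 1.22 to 1.62 in HEC tumour. All HEC libraries lay below the BEC libraries of the same state, by a mean of -0.503 without and -0.521 with tumours (exact permutation test, two-sided, p = 0.1 for each, the smallest that 3 against 3 libraries can give). With a tumour the ratio differed by -0.0327 in HECs (exact p = 0.8) and by -0.0150 in BECs (exact p = 0.9), and the libraries overlapped in both.

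The order of the 8 genes per length also differed between groups. Per kb of exon, Parp1 stood first in all 4 endothelial groups, from 1734 normalised counts in HEC tumour to 3441 in BEC tumour. Parp12 followed in BEC normal (2804), HEC normal (1494) and BEC tumour (1090.0), each time apart from its neighbours, but in HEC tumour it dropped to 676, behind Parp2 (986) and Parp10 (748) and overlapping with Parp10. Parp11 stood lowest on this scale, from 254 in HEC tumour to 418 in BEC normal, and in HEC tumour its libraries overlapped with those of Parp14 (265.5), as those of Parp14 did with Dtx3l (284). That place depends on the length used, since the longest transcript of Parp11 has 3746 of its 7026 exon bases. With the longest transcript as the length in place of all exon bases, 4 of the 8 genes kept their place in BEC tumour and at least 6 in each of the other 3 groups, and Parp11 stayed last in HEC normal but not in BEC normal, BEC tumour or HEC tumour.

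The next question was what 12-HETE does to these genes in the tumour cells themselves. Their levels were scaled within the 6 EO771 libraries and tested over 11602 genes. All 6 interferon-linked genes fell with 12-HETE, between 4.27-fold and 13.3-fold, where 7.79% of all genes were called lower and 2.38% higher. The libraries given 12-HETE lay below all vehicle libraries for 6 of 6, which 30.5% of all genes did. The median log2 change of the 6 was -2.87, with 0.00 over all genes. The mitochondrial share and the epithelial markers also differed between these 2 groups, as given above. The fibroblast and pericyte markers summed to 390.1 to 613 CPM with vehicle and 998 to 1037 CPM with 12-HETE, where both that could be tested were called higher. The part of these values in the change was not tested.

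Parp12 fell the most. Its normalised counts were 3542, 3714 and 3625 with vehicle and 283, 273 and 259.8 with 12-HETE, a log2 fold change of -3.74 ± 0.10 (edgeR adjusted p = 6.70e-08, where DESeq2's was too small for the program to write). Per kb of exon it stood at 908 with vehicle, where its libraries overlapped with those of Parp1 (867), and at 68.1 with 12-HETE. Parp14 had 2186, 2041 and 3484 counts with vehicle, the third library being the highest, and 227, 211 and 215 with 12-HETE (-3.56 ± 0.21, DESeq2 adjusted p = 1.18e-64).

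The Parp9 and Dtx3l pair fell as well, though not by the same factor. Parp9 went from 1201, 1202 and 1539.6 normalised counts to 160.2, 167 and 187, a log2 fold change of -2.94 ± 0.15 (DESeq2 adjusted p = 1.02e-78). Dtx3l went from 805, 816 and 955 to 176, 133 and 164, which is -2.45 ± 0.15 (adjusted p = 6.64e-55). The ratio of Parp9 to Dtx3l per kb of exon was 1.73 to 1.89 with vehicle and 1.07 to 1.47 with 12-HETE, without overlap (difference -0.50, exact permutation test, two-sided and unpaired, p = 0.1, the smallest that 3 against 3 can give).

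Parp10 had 1627, 1894 and 1659 normalised counts with vehicle and 264, 239 and 241 with 12-HETE (-2.80 ± 0.12, DESeq2 adjusted p = 2.04e-115). Parp11 changed the least of the 6, from 1225, 1209.8 and 1513 to 307, 294 and 324 (-2.09 ± 0.14, adjusted p = 1.04e-51). For both genes the groups stood apart.

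The contrast genes did not fall. Parp1 had 4865, 4338 and 4569.7 normalised counts with vehicle and 6546, 6357 and 6518 with 12-HETE, all above the vehicle libraries, and its log2 difference was 0.50 ± 0.08 (DESeq2 adjusted p = 1.80e-08), under 2-fold. Parp2 had 666, 535 and 686 counts with vehicle and 662, 657 and 629 with 12-HETE, which overlap (0.05 ± 0.13, adjusted p = 0.796). The 95% interval for Parp2 ran from -0.21 to 0.31 on the log2 scale.

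**Figure D3:**
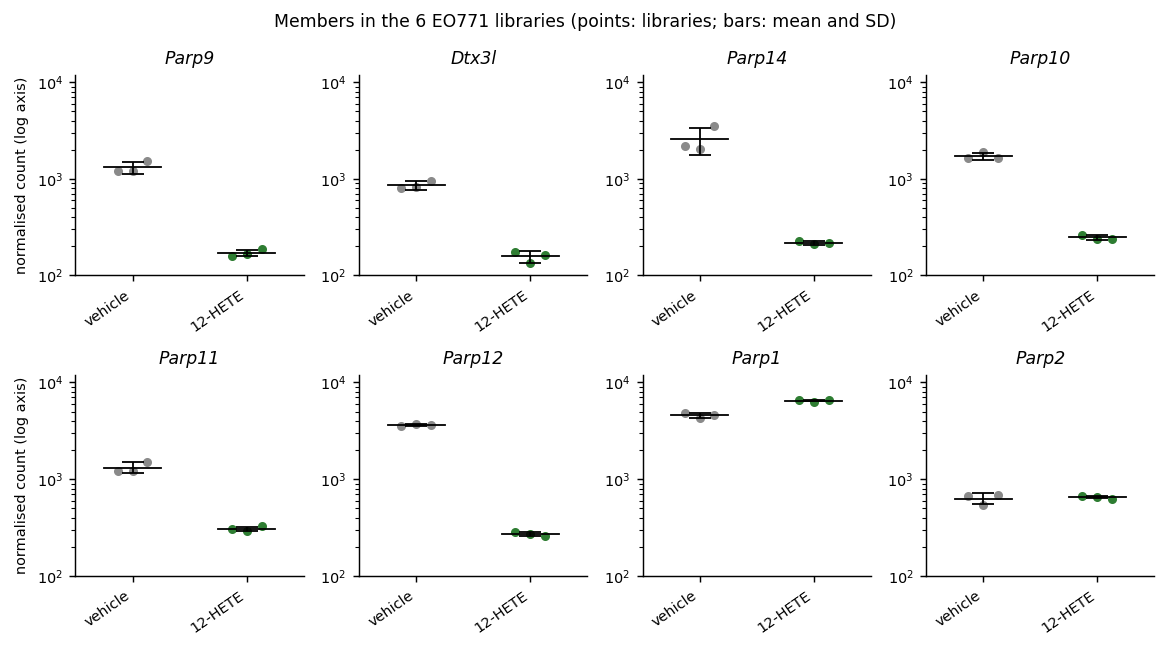
Normalised counts of the 8 genes in the 6 EO771 libraries, on log axes with the same range in every panel. Points are libraries and bars are the mean and SD of 3 libraries. The 6 interferon-linked genes lay lower with 12-HETE in every library, Parp1 lay higher and Parp2 overlapped.

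**Figure D4:**
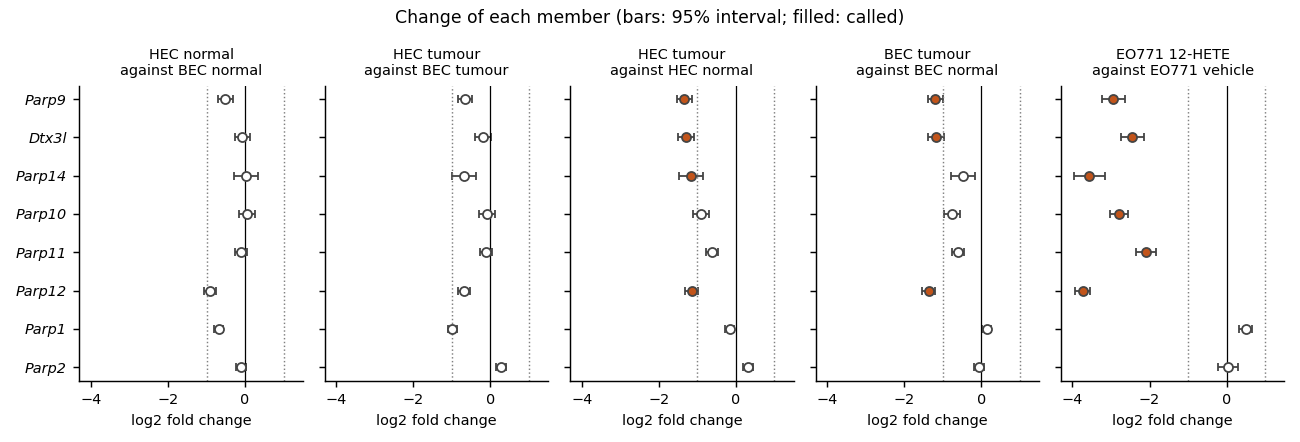
Log2 fold change of each gene in 4 endothelial comparisons and in EO771 cells. Bars are 95% intervals, filled points are genes called by DESeq2 and dotted lines mark a 2-fold change. Called points stand in the tumour comparisons and in the 12-HETE comparison, and all of them are interferon-linked genes.

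The make-up of the whole PARP family shifted with these changes. The level of each of 16 PARP genes was taken per kb of exon, namely the 5 interferon-linked Parp genes, Parp1, Parp2 and 9 others. The 5 interferon-linked genes held 38.4 to 39.9% of the summed level in BEC normal and 23.0 to 24.9% in BEC tumour, and 32.5 to 33.6% in HEC normal and 19.5 to 21.6% in HEC tumour. In EO771 cells they held 35.1 to 37.7% with vehicle and 6.12 to 6.20% with 12-HETE. The share of Parp1 moved the other way in EO771 cells, from between 14.3 and 16.8% to between 32.8 and 33.4%. It also rose with a tumour, from 17.7 to 19.4% to 24.9 to 26.4% in BECs and from 12.5 to 14.25% to 14.6 to 15.9% in HECs. In HECs the normalised counts of Parp1 itself were lower with a tumour, as given above. A share also depends on the level of the other genes in the sum. Within each of these comparisons the ranges did not overlap, and each difference in the interferon-linked share had the smallest p that 3 against 3 libraries allow (exact permutation test, two-sided and unpaired, p = 0.1).

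**Figure D5:**
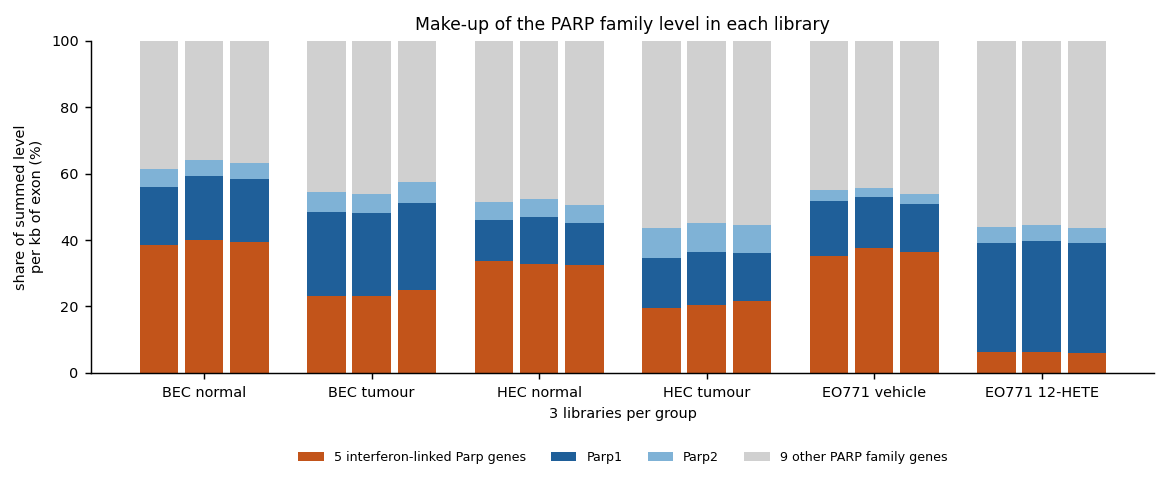
Share of the summed level per kb of exon of 16 PARP genes in each of the 18 libraries, in groups of 3. The share of the 5 interferon-linked Parp genes was lower with tumour in BECs and HECs and lowest in EO771 cells given 12-HETE, at 6.12 to 6.20%.

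Of the 9 other PARP family genes, at most 1 was called in each direction in any comparison. Over all genes 7.79% were called lower with 12-HETE and 12.4% higher in BEC tumour against BEC normal. Between HECs and BECs 10.7 to 17.1% were called in each direction. A count of 1 of 9 is close to these shares. In EO771 cells only Parp16, an enzyme of the endoplasmic reticulum membrane, was called lower (-1.06 ± 0.16, DESeq2 adjusted p = 1.66e-10), and it dropped under 2-fold without vehicle replicate 1 (-0.96) or 12-HETE replicate 2 (-0.998). The median log2 difference of the 9 there was -0.66, and 6 of them were lower by adjusted p alone, where 24.2% of all genes were. That count of 6 of 9 stood above this share and was not tested against it. In HEC tumour against HEC normal DESeq2 and edgeR called 0 of the 9 in either direction, with 3 lower at an unadjusted p below 0.05, where 21.6% of all genes were. In BEC tumour against BEC normal Parp8 was called higher (1.30 ± 0.12, adjusted p = 1.81e-25). Tiparp, a target gene of the aryl hydrocarbon receptor, was called higher and Parp3 lower in HECs than in BECs both without a tumour (2.12 ± 0.13 and -1.35 ± 0.10) and with one (1.58 ± 0.13 and -1.04 ± 0.10). Without BEC tumour replicate 2 the latter Parp3 value was under 2-fold (-0.96).

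Of 9 genes of interferon signalling, from receptors to transcription factors, those called lower with 12-HETE were Stat2 and Irf9. Stat2 went from 8723, 8186 and 9244 normalised counts to 395, 443 and 449.7, a log2 fold change of -4.34 ± 0.10. Irf9 fell by 3.51 ± 0.10 (DESeq2 adjusted p = 5.26e-243). The other 7, which are 4 receptor chains and 3 JAK kinases, were not called and lay between -0.52 (Tyk2) and 0.24 (Ifnar1).

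Stat2 and Irf9 were also the 2 called lower in HEC tumour against HEC normal, Stat2 by -2.20 ± 0.17 (DESeq2 adjusted p = 3.11e-36) and Irf9 by -1.13 ± 0.14 (adjusted p = 1.44e-14). Without HEC tumour replicate 3, Irf9 was under 2-fold (-0.97). In BEC tumour against BEC normal DESeq2 and edgeR called 0 of the 9 in either direction, with 4 lower and 2 higher at an unadjusted p below 0.05, where 29.1% of all genes were lower and 28.8% higher. The median log2 difference of the 9 was -0.20 with 12-HETE, -0.17 in HECs and -0.13 in BECs. Between cell types Ifnar1, a receptor chain for type I interferon, was called lower in HECs than in BECs both without a tumour (-1.37 ± 0.18) and with one (-1.03 ± 0.18), and Ifngr1, a receptor chain for interferon-gamma, was called lower without one (-1.14 ± 0.25). With tumours Ifnar1 was under 2-fold without BEC tumour replicate 1 (-0.97) or HEC tumour replicate 3 (-0.84).

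The other parts of ADP-ribose turnover moved less uniformly. Of 4 other deltex genes, Dtx4 was called lower (-1.13 ± 0.21, DESeq2 adjusted p = 3.01e-07) in BEC tumour against BEC normal. Dtx4 was also called lower and Dtx2 higher in HEC normal against BEC normal (-1.21 ± 0.21 and 1.33 ± 0.13). Of 6 enzymes that remove ADP-ribose and could be tested, Macrod1 was called higher in BEC tumour against BEC normal (2.20 ± 0.19, adjusted p = 1.12e-30) and, with Oard1, in HEC normal against BEC normal (2.41 ± 0.19 and 1.08 ± 0.08). No eraser was called in the other 3 comparisons. Of 7 partners of PARP1 in repair, Lig3, a DNA ligase, was called lower in HEC normal against BEC normal (-1.25 ± 0.265, adjusted p = 6.49e-06).

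Among 10 genes that make or use NAD, the substrate of every PARP, the calls in EO771 cells were Sarm1 (-1.97 ± 0.80, DESeq2 adjusted p = 0.0328) and Nmnat2 (-1.70 ± 0.66, adjusted p = 0.0234), both lower and both at 32.5 normalised counts or fewer in every library. Neither call is firm. Sarm1 had 10.9, 32.5 and 7.17 normalised counts with vehicle and 4.11, 5.91 and 2.95 with 12-HETE. Without vehicle replicate 2, the highest for both genes, neither passed the filter on low counts. Without any 1 of the 12-HETE libraries the adjusted p of Sarm1 was 0.0666 to 0.146. Nmnat2 lost its call without vehicle replicate 1 (adjusted p = 0.0903) or without 12-HETE replicate 2 (0.146) or 3 (0.133), and without 12-HETE replicate 1 its change was 5.04-fold in place of 3.25-fold. Naprt, an enzyme of NAD synthesis, was called lower in BEC tumour against BEC normal (-2.16 ± 0.24, adjusted p = 4.92e-19) and higher in HEC tumour against HEC normal (1.49 ± 0.27, adjusted p = 2.00e-07). In HEC normal against BEC normal 2 of the 10 were called lower, Naprt (-3.89 ± 0.26) and Nmnat1 (-2.11 ± 0.16), and 2 higher, the larger change being that of Nmnat2 (1.38 ± 0.08). Over all genes 15.1% were called lower and 17.1% higher there, so both counts are close to the background. With tumours Nmnat1 was lower (-1.06 ± 0.16).

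Neither DESeq2 nor edgeR called any gene of the deltex, eraser or repair list in HEC tumour against HEC normal, in HEC tumour against BEC tumour or with 12-HETE. At an unadjusted p below 0.05 the deltex genes lower were 1, 1 and 2 in these comparisons in turn and those higher 0, 1 and 0. The erasers lower were 3, 1 and 1 and those higher 0, 1 and 2. The repair partners lower were 2, 3 and 2 and those higher 1, 2 and 2, and in BEC tumour against BEC normal, where none was called by either tool, 2 were lower and 1 higher. Over all genes 21.6, 30.1 and 27.1% were lower and 20.7, 28.2 and 26.1% higher at this threshold in the 3 comparisons in turn. Some counts stood above these shares, such as 2 of 3 tested deltex genes lower with 12-HETE. Another was 3 of 6 tested erasers lower in HEC tumour against HEC normal. The lists are short, and the counts were not tested against these shares.

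To see which genes ran most like each member, the root mean square (RMS) difference of centred log2(normalised count + 1) values was taken over the 12 endothelial libraries, against 18503 other genes. Nearest to Parp9 were Ralgps2 (0.144), Fzd2 (0.190) and Ifi35 (0.197), an interferon-induced gene. Nearest to Dtx3l were Glipr2 (0.163), Ly6e (0.179), which interferon also induces, and Thra (0.181). Parp14 was nearest to Mfap3l (0.143), Dtna (0.146) and Phf20 (0.154), Parp10 had Unc45a (0.118) and Chst12 (0.132) among its nearest 3, Parp11 was nearest to Tmem63b (0.0766), Cct3 (0.0887) and Insig2 (0.0946), and Parp12 to Vangl2 (0.134), Pnkd (0.163) and Arvcf (0.175).

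Parp1 ran closest to Hadha (0.0558), Abhd12 (0.0563) and Ppt1 (0.0629), and Parp2 to Elac1 (0.0691), Ubxn4 (0.0714) and Fam98b (0.0733). Among the members themselves the smallest RMS differences were between Parp10 and Parp11 (0.181), Parp9 and Parp12 (0.183) and Parp9 and Dtx3l (0.254), and the largest was between Parp12 and Parp2 (0.831). These values describe the 12 libraries, in which cell type and tumour vary together with library, and carry no test.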

How the data were processed

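The authors mapped the reads with STAR to GRCm38 and, for endothelial cells, used featureCounts for quantification. The deposited endothelial values are whole numbers in steps of about 3.7 (3.68 to 3.75), so 1 unit is not 1 fragment, and they were used as estimated counts. The deposited EO771 values are raw counts by symbol. Strand use is not given in the sources used here.

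Each table was fitted separately with DESeq2 1.42.0 (R 4.3.3, default parameters, group as the sole term, genes with a mean of at least 10), after the methods of the study, and tested on simulated data first. Genes were called at adjusted p under 0.05 and a change over 2-fold. The alternatives were edgeR 4.0.16, TMM scaling, no filter, other thresholds, a replicate block, only the groups compared, values divided by their step, and each library left out.

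Equal replicate numbers correlated (deviations from group means) by 0.113 to 0.328 in all 3 EO771 pairs and by -0.03 to 0.132 in the 18 endothelial pairs, so the numbers were taken to pair only the EO771 libraries. With that block, 6 of 6 interferon-linked genes were called lower with 12-HETE, as without it. The exact permutation tests of the ratio and the share did not use this pairing. No pair of libraries agreed within sampling noise. Pairs of 12-HETE libraries came closest to it, with a chi-square per degree of freedom of 2.375 to 2.696. It was 16.5 to 46.8 for vehicle pairs and 42.5 to 83.7 for endothelial pairs of 1 group, so the spread was unequal between the groups. All 8 members are given in every comparison, and of each other list at most the 3 called genes of largest change. The members and lists were chosen with earlier results of these data known. Some genes of the lists and of the nearest genes are not reported here, and counts and medians leave them out. After the data were seen, each library was also left out for the called genes of the other lists.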

Additional observations from a re-analysis of the deposited data

Results flagged for a closer look

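In 3 of the 8 members the effect of a tumour was not the same in HECs as in BECs by the DESeq2 interaction test at adjusted p alone, each by less than 2-fold. That is 2 of 8 lower and 1 of 8 higher, where 23.7% of all genes were lower and 22.9% higher, so the count is near the background and not a result about the members as a group. The log2 change in HECs less that in BECs was -0.70 ± 0.22 for Parp14 (adjusted p = 0.00532), -0.31 ± 0.09 for Parp1 (adjusted p = 0.00162) and 0.37 ± 0.10 for Parp2 (adjusted p = 0.000369). Without 1 library, the Parp14 value ran from -0.90 to -0.54.

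Among the other lists, the genes past the interaction test and the 2-fold rule included Stat2 (-1.41), whose fall was the larger in HECs, Parp8 (-1.43), Dtx2 (-1.24) and Macrod1 (-2.78). Of the 10 NAD genes, 2 were called higher and 4 lower, and the 3 of largest change were Naprt (3.65), Nmnat3 (-1.15) and Nmnat2 (-1.08). All these values are the same log2 difference. Over all genes 11.1% were called higher and 12.1% lower in it.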

How the results depend on the processing

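The numbers of interferon-linked genes called lower were 4 of 6 in HECs with a tumour, 3 of 6 in BECs with a tumour and 6 of 6 with 12-HETE under edgeR, TMM scaling, no filter and a replicate block, and with any single library left out. The rule itself moved the endothelial counts. By adjusted p alone they were 6 in HECs and 6 in BECs with a tumour, 2 in HEC normal against BEC normal, 3 in HEC tumour against BEC tumour and 1 for the interaction, where 18.5, 27.2, 31.9, 28.4 and 23.7% of all genes were lower, so that the third and the last are at or below the background. Tested against a 2-fold change, 1 was lower in HECs with a tumour and 1 in BECs, since most of these changes lie close to that size. A replicate block changed no call of a member, also in edgeR for EO771 cells, a setting chosen after seeing the data. Parp14 in BECs missed adjusted p 0.05 with only those groups fitted (-0.43, adjusted p = 0.0583). Uncalled differences that changed sign with 1 library left out ranged from -0.14 to 0.0088 (Dtx3l), -0.14 to 0.22 (Parp14) and -0.0083 to 0.084 (Parp10) in HEC normal against BEC normal, from -0.17 to 0.00064 (Parp10) in HEC tumour against BEC tumour, from -0.13 to 0.00079 (Parp2) in BEC tumour against BEC normal, from -0.051 to 0.041 (Parp11) for the interaction and from -0.065 to 0.11 (Parp2) with 12-HETE, and the cause was not tested. Per kb of exon, the longest transcript as length left 3 of 8 genes in their place in vehicle cells.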
